A study of Mus musculus with 9 samples.

Results

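*Csf1r*, *Tyrobp* and *Laptm5* are 3 microglial genes that encode a surface receptor, a signalling adaptor and a lysosomal membrane protein. They were taken by symbol from the deposited RNA-seq table, in which they are 3 of 689 genes. The table covers hemibrains of male C57BL/6J mice in 3 groups, with 3 mice and 1 library per mouse in each group. Young control mice, 5 months old by the labels, and aged control mice, 24 months old, received control diet for 6 weeks. Aged-repopulated mice, also 24 months old, received PLX5622 for 2 weeks and then control diet for 4 weeks. The study reported that PLX5622 eliminated most, but not all, hippocampal microglia in aged mice. New microglia repopulated the brain after it was withdrawn. The supplier was JAX for the young and NIA for the aged mice, and its part cannot be told apart from that of age. Values are RPKM, read numbers scaled to transcript length and sequencing depth, and levels are therefore compared between genes per length. The 689 genes are those that the model of the study had called. Its methods describe a fit that also held libraries not analysed here, while the deposited model terms name only age and repopulated microglia. Which libraries that fit held is thus not certain. The genes were selected at least partly on the values compared here. A gene's presence in the table is therefore no separate evidence that it differs between these 3 groups.

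PLX5622 inhibits the colony-stimulating factor 1 receptor, the tyrosine kinase that *Csf1r* encodes. CSF1R binds the ligands CSF1 and IL-34, and microglia depend on its signal for survival, which is why the inhibitor clears most of them from the brain. TYROBP, also called DAP12, is a small membrane adaptor that carries an activation motif for the kinase SYK and passes on signals from receptors such as TREM2. LAPTM5 is a membrane protein of lysosomes in cells of the blood and immune lineages. In the adult brain all 3 genes are used as markers of microglia and related macrophages. RNA of a hemibrain cannot tell a higher number of microglia from more RNA per microglial cell, and this holds for every value given here.

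The data show that *Tyrobp* and *Laptm5* were higher in aged than in young control brains, by 1.81-fold and 1.30-fold, whereas *Csf1r* was 1.07-fold higher, did not pass the test and had a log2 difference of -0.02 once libraries were centred on their medians. The same centring ended the call of *Laptm5* with age (limma, adjusted p = 0.105), which passed in 8 of 19 alternatives, against 18 of 19 for *Tyrobp*. After repopulation none of the 3 genes differed detectably from aged controls, with ratios of mean RPKM between 1.05 and 1.11. *Tyrobp* and *Laptm5* were also above their young control levels in the aged-repopulated brains, by 1.97-fold and 1.44-fold, and passed in 16 and 8 of the 19 alternatives. These adjusted p values are over the 689 genes, which the study had selected at least partly on these libraries. The permutation p values given below, for the genes and for their ratios, share that limit. Adjusted for the number of genes that the study tested, neither gene was called, at adjusted p values from limma of 0.0585 for *Tyrobp* and 0.235 for *Laptm5* with age, and of 0.0794 and 0.405 against young controls. This adjustment counts the genes outside the table as having higher p values, so one over their own p values could give lower values. Without variance moderation neither *Tyrobp* nor *Laptm5* was called against young controls, at 0.082 and 0.123.

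**Figure D1:**
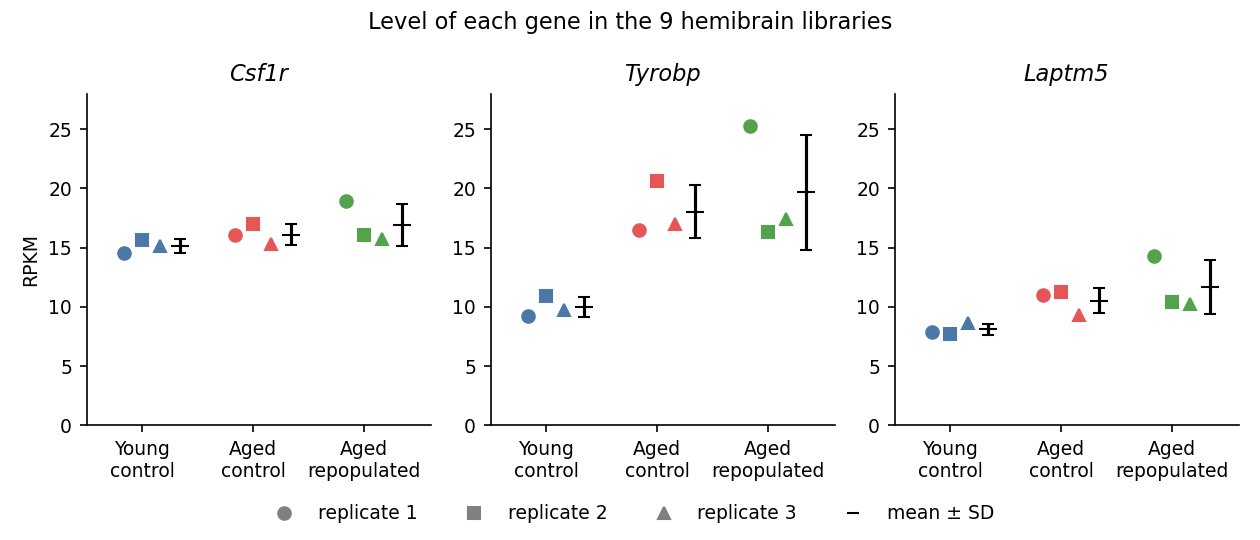
RPKM of *Csf1r*, *Tyrobp* and *Laptm5* (vertical axis, starting at 0) in the 9 libraries, with 1 symbol per replicate and the mean ± SD of each group in black. Aged-repopulated replicate 1 is the highest of the 9 libraries in each panel, and the young controls lie below both aged groups for *Tyrobp* and *Laptm5*.

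*Csf1r* lies on the plus strand of chromosome 18 of GRCm38, from 61100598 to 61132149, and its longest coding transcript in the annotation has 21 exons and 4701 nucleotides. Its 3' end overlaps *Hmgxb3*, a gene on the other strand, by 873 bases, and whether reads were counted by strand is not given in the sources used here. *Csf1r* was 14.5, 15.7 and 15.1 RPKM in young control replicates 1, 2 and 3. It was 16.0, 17.0 and 15.3 RPKM in the aged controls, and 18.9, 16.0 and 15.7 RPKM in the aged-repopulated mice. The aged control values overlapped with those of both other groups. The lowest aged-repopulated value, 15.69 RPKM, lay just above the highest young value, 15.68 RPKM. The group means were 15.1 ± 0.58 RPKM (SD, n = 3) in the young control group, 16.1 ± 0.86 in the aged control group and 16.9 ± 1.77 in the repopulated group. On the log2(RPKM + 1) scale, which slightly understates changes at these levels, the difference was 0.08 with age, with a 95% interval from -0.07 to 0.24 (limma, adjusted p = 0.27). It was 0.06 with repopulation, with an interval from -0.09 to 0.21 (limma, adjusted p = 0.473). Between aged-repopulated and young control brains it was 0.15, with an interval from -0.003 to 0.30 (limma, adjusted p = 0.179). For any difference among the groups, an exact permutation test that ran through every way to place the libraries in 3 groups of 3 gave p = 0.207, where the smallest possible p is 0.0036.

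*Tyrobp* lies on the plus strand of chromosome 7 of GRCm38, from 30413760 to 30417585. No other annotated gene overlaps it. With a longest transcript of 5 exons and 564 nucleotides, it is the 8th shortest of 686 genes with an annotated transcript. It was 9.26, 10.9 and 9.75 RPKM in young control replicates 1, 2 and 3, and 16.5, 20.6 and 17.0 RPKM in the aged controls. In the aged-repopulated mice it was 25.2, 16.4 and 17.4 RPKM. Every aged library, repopulated or not, was above every young library, while the aged groups overlapped. The means were 9.97 ± 0.84 RPKM (SD, n = 3), 18.0 ± 2.23 and 19.7 ± 4.87 in young control, aged control and aged-repopulated brains. The log2 difference with age was 0.79 with a standard error of 0.14 (limma, adjusted p = 0.00656, or 0.0585 for the number of genes that the study tested), the 10th highest of the 689 genes. Between aged-repopulated and young control brains it was 0.89 with a standard error of 0.14 (limma, adjusted p = 0.0089, or 0.0794 for the number of genes that the study tested), the 5th highest. With repopulation the difference was 0.10, with a 95% interval from -0.22 to 0.42 (limma, adjusted p = 0.583). The exact permutation test over the 3 groups gave p = 0.025. A trend on transcript length was fitted in each library over the genes of the table. Such a fit can also take in differences between the groups, which was not tested. After each library was corrected for this trend, the log2 difference was 0.54 with age (limma, adjusted p = 0.0216). Between aged-repopulated and young control brains it was then 0.77 (limma, adjusted p = 0.0112).

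*Laptm5* lies on the plus strand of chromosome 4 of GRCm38, from 130913125 to 130936141, with a longest transcript of 8 exons and 2600 nucleotides. No other annotated gene overlaps it. The RefSeq promoter table on GRCm38.p6 held an entry for *Laptm5* among the 3 genes. The stretch that ends just before the GENCODE start of the gene, chr4:130913066-130913124 on the plus strand, is shown because it is the start region of a gene whose level was higher in both aged groups, and capitals mark the letters of a TATA box (TATAAA).
*Laptm5* start region: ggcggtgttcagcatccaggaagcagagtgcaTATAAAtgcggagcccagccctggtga
These letters begin 27 bases before the GENCODE start and 218 bases before the start in the RefSeq table, on which the 250-base windows are built. On either strand, they occur in 12.4% of 32851 mouse promoter windows of 250 bases. The window of *Laptm5* also holds GAGGAA, the core of sites for the myeloid factor PU.1, on the minus strand, as do 23.3% of the windows, beginning 38 bases before the RefSeq start and downstream of the GENCODE start, where it does not overlap TATAAA. No match was found for TGANTCA (AP-1), GGGCGG (Sp1) or the joint ETS and IRF motif, GGAA and GAAA with 2 bases between them, which 6.7%, 32.7% and 2.3% of the windows hold. A match is a description of the letters only.

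*Laptm5* was 7.90, 7.73 and 8.66 RPKM in young control replicates 1, 2 and 3. It was 11.0, 11.2 and 9.31 RPKM in the aged controls and 14.3, 10.4 and 10.3 RPKM in the aged-repopulated mice. As for *Tyrobp*, all aged libraries were above all young libraries, and the aged groups overlapped. The means were 8.09 ± 0.49 RPKM (SD, n = 3), 10.5 ± 1.05 and 11.7 ± 2.27 in young control, aged control and aged-repopulated brains. The log2 difference with age was 0.34 with a standard error of 0.11 (limma, adjusted p = 0.0263), and against young controls the aged-repopulated brains differed by 0.46 with the same standard error (limma, adjusted p = 0.0454). With repopulation the difference was 0.13, with a 95% interval from -0.13 to 0.38 (limma, adjusted p = 0.386). The exact permutation test over the 3 groups gave p = 0.025. Both calls of *Laptm5* were lost in some fits that left out 1 library. With age, the adjusted p from limma was between 0.0636 and 0.0875 without young control replicate 1 or 2 or aged control replicate 1 or 2. Against young controls, that of the aged-repopulated brains was between 0.0545 and 0.118 without young control replicate 1, 2 or 3 or aged control replicate 2.

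With age, 2 of the 3 genes were called higher at an adjusted p under 0.05, in a table where 46.3% of the genes were called higher. The libraries of the groups did not overlap for the same 2 genes, against 50.7% of the table with higher values in every aged control. With repopulation, 0 of the 3 genes were called by limma in either direction and 0 had an unadjusted p under 0.05, against 8.71% of the table called. None of the 3 was free of overlap, against 37.4% of the table. In the aged-repopulated brains, 2 of the 3 genes were called higher than in young controls, where 4.21% of the table was, and 3 of the 3 had no overlap, against 31.5% of the table. The median log2 difference over the table was 0.10 with age, -0.05 with repopulation and 0.04 between aged-repopulated and young control brains. Relative to that median, the difference with age was 0.69 for *Tyrobp*, 0.24 for *Laptm5* and -0.01 for *Csf1r*. The difference with age of *Csf1r* was thus close to that of the middle gene of the table. After median centring *Tyrobp* kept its call with age, and *Laptm5* lost it, with a log2 difference of 0.23 (limma, adjusted p = 0.105).

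**Figure D2:**
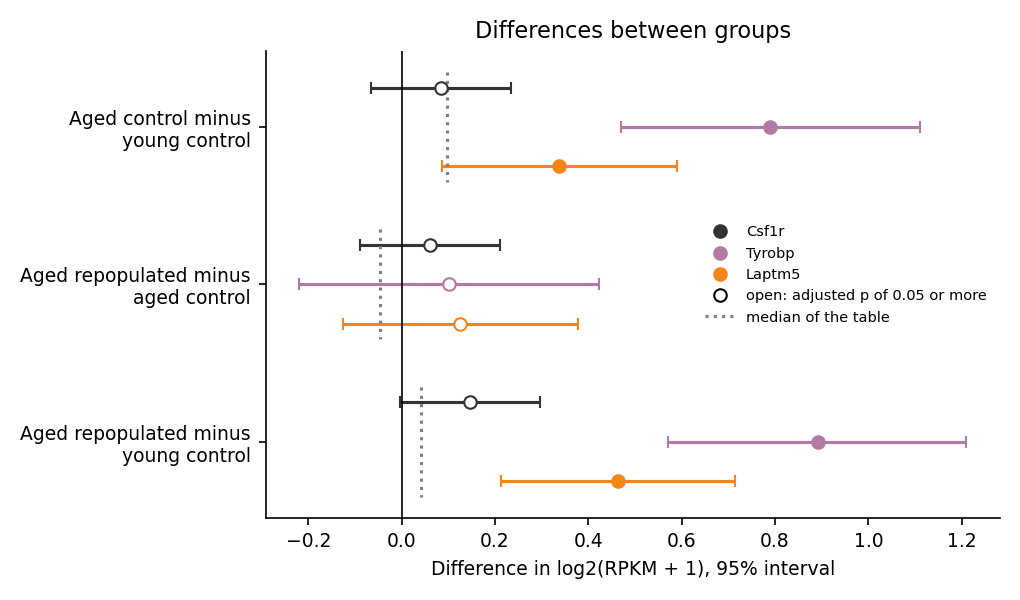
Difference in log2(RPKM + 1) for each pair of groups (horizontal axis) with its 95% interval from limma, filled where the adjusted p is under 0.05, and the median of the 689 genes as a dotted line. *Tyrobp* and *Laptm5* are filled in both comparisons with young controls, and all 3 intervals span 0 between aged-repopulated and aged control brains.

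Whether the 3 genes changed by the same amount was asked with the ratio between a pair of them within each library, in which the scaling of the library to its reads largely cancels. The ratio of *Tyrobp* to *Csf1r*, each as RPKM + 1, was 0.661, 0.713 and 0.667 in young control replicates 1, 2 and 3. It was 1.03, 1.20 and 1.10 in the aged controls and 1.32, 1.02 and 1.10 in the aged-repopulated mice. The aged brains of both kinds thus held about as much *Tyrobp* as *Csf1r* per length of transcript or more, and the young brains held less. The exact permutation test over the 3 groups gave p = 0.0321 for this ratio. The ratio of *Laptm5* to *Csf1r* differed less, from 0.565 ± 0.039 (SD, n = 3) in the young to 0.673 ± 0.036 in the aged control group, and 0.704 ± 0.055 after repopulation (exact permutation test over the groups, p = 0.0214). The ratio of *Tyrobp* to *Laptm5* was 1.21 ± 0.13, 1.66 ± 0.17 and 1.62 ± 0.10 in these groups (exact permutation test over the groups, p = 0.0286).

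For all 3 ratios, every aged control and every aged-repopulated library was above every young library, and the aged groups overlapped. The log2 ratio of *Tyrobp* to *Csf1r* was higher by 0.71 in aged controls and by 0.74 in aged-repopulated brains than in young controls (exact two-sided permutation test, p = 0.1 for each, the smallest that 3 against 3 libraries can give). Between aged-repopulated and aged control brains the 3 log2 ratios differed by 0.04, 0.06 and -0.03, with exact permutation p values of 0.9, 0.6 and 0.8. These were 3 tests over the groups and 9 differences between pairs of groups, and their p values are not adjusted. They come from genes that the study had selected at least partly on these libraries. The genes differ in transcript length, and a trend on length was fitted in each library over the genes of the table. After each library was corrected for that trend, the difference with age in the log2 ratio of *Tyrobp* to *Csf1r* was 0.46 in place of 0.71, and in that of *Laptm5* to *Csf1r* 0.15 in place of 0.25.

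**Figure D3:**
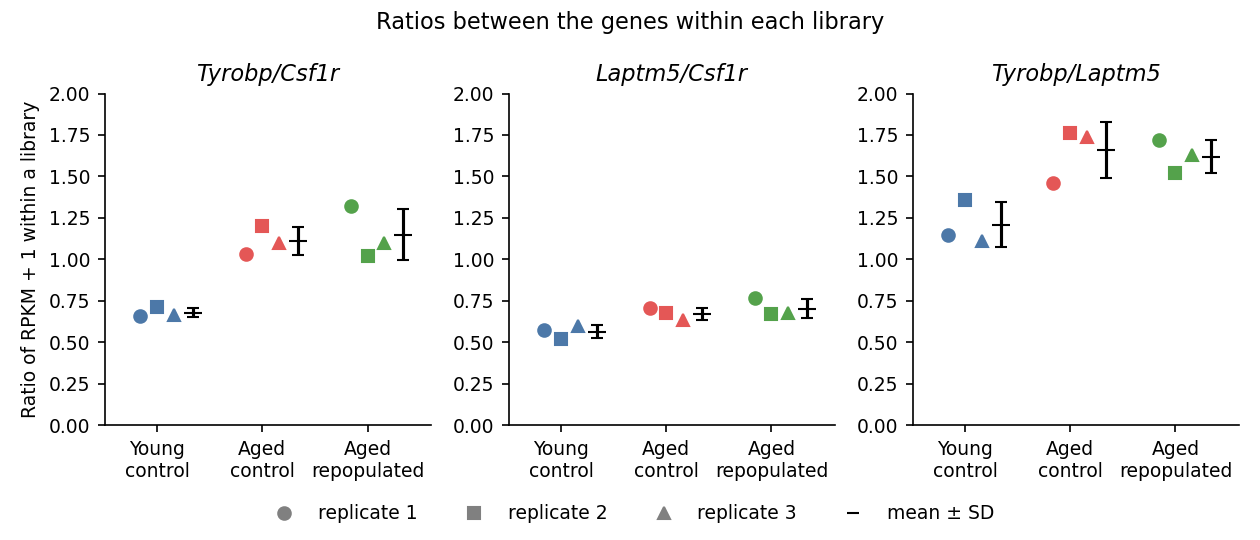
Ratio of RPKM + 1 between 2 genes within each library (vertical axis, starting at 0), with 1 symbol per replicate and the mean ± SD of each group in black. The young control libraries lie below all libraries of both aged groups in each panel, for example at 0.661 to 0.713 for *Tyrobp*/*Csf1r* against 1.02 to 1.32.

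Aged-repopulated replicate 1 was the highest of the 9 libraries for *Csf1r*, *Tyrobp* and *Laptm5*. It held the highest value of 10.7% of the 689 genes. Without it, the aged-repopulated mean was 15.9 RPKM for *Csf1r*, 16.9 RPKM for *Tyrobp* and 10.3 RPKM for *Laptm5*, each between the lowest and the highest aged control. The log2 difference with repopulation then changed sign for all 3 genes. It was -0.02 for *Csf1r*, -0.08 for *Tyrobp* and -0.02 for *Laptm5*, with adjusted p values from limma of 0.783, 0.497 and 0.855. The difference from young controls kept its direction, at 0.07, 0.71 and 0.32, and *Tyrobp* and *Laptm5* were still called, with adjusted p values from limma of 0.00429 and 0.0473. The coefficient of variation among the aged-repopulated libraries was 24.7% for *Tyrobp*, 19.5% for *Laptm5* and 10.5% for *Csf1r*, against a median of 3.41% over the table. For *Tyrobp* this was the 6th largest of the 689 genes.

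**Figure D4:**
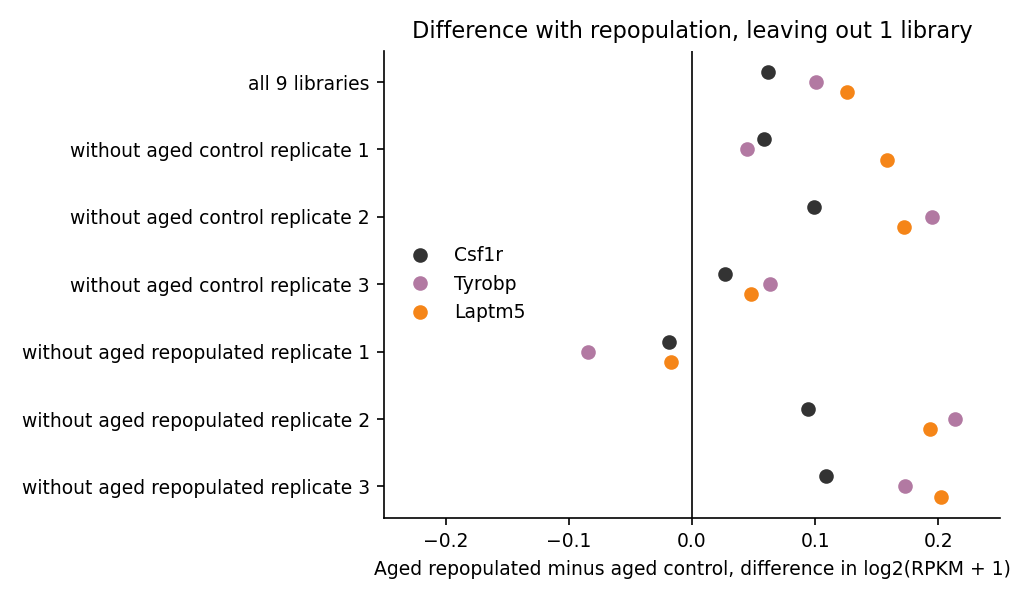
Difference in log2(RPKM + 1) between aged-repopulated and aged control brains (horizontal axis) for the 3 genes, with all 9 libraries and without each aged library in turn. The values lie above 0 in each fit but the one without aged-repopulated replicate 1, where all 3 lie between -0.08 and -0.02.

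Of 14 markers of microglia, 7 are in the table: the 3 genes described here, the complement subunits *C1qa*, *C1qb* and *C1qc*, and the lysosomal protease *Ctss*. *Aif1*, *Cx3cr1*, *P2ry12*, *Tmem119*, *Trem2*, *Itgam* and *Siglech* are not analysed here, and neither is any of 13 markers of perivascular macrophages and monocytes. The summed level of the 7 genes was 113 to 119 RPKM in the young, 179 to 215 RPKM in the aged control and 170 to 257 RPKM in the aged-repopulated libraries. Aged-repopulated replicate 1 was the highest of the 9 libraries for all 7, and the mean of the other two aged-repopulated libraries was 175 RPKM. Among the 3 aged-repopulated libraries, replicate 1 was also the highest for 4 of 4 endothelial markers, for the oligodendrocyte marker *Opalin* and the astrocyte marker *Gjb6*, and for 1 of 4 neuronal markers, against 37.6% of the table. Markers of other cell types also differed between the groups. *Opalin* had a log2 difference of -0.53 with age (limma, adjusted p = 0.0133) and 0.37 with repopulation (limma, adjusted p = 0.0932). With age 3 neuronal markers were called higher and 1 lower, in a table where 46.3% of the genes were called higher. After median centring of the libraries 1 was called higher and 1 lower. The summed mean of the neuronal markers, without centring, was 686 RPKM in young and 767 RPKM in aged controls. Among endothelial markers 2 were called higher and 1 lower with age and 0 higher and 1 lower with repopulation, with summed means of 65.4 RPKM in aged controls and 58.2 RPKM in aged-repopulated brains. Each of these cell types had at most 4 of 12 to 16 markers in the table, and their part in the levels of the 3 genes was not tested.

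Set against the mean log2(RPKM + 1) of the other 4 microglial markers in the same library, the 3 genes took different courses, given here as a description chosen after the values were seen. The difference of *Csf1r* from that mean was -0.42 ± 0.05 (SD, n = 3) in the young, -1.15 ± 0.06 in the aged control and -1.08 ± 0.21 in the aged-repopulated group. The difference of *Laptm5* was -1.24 ± 0.05, -1.72 ± 0.07 and -1.59 ± 0.11 in these groups. That of *Tyrobp* lay within a narrower range, at -0.97 ± 0.10, -1.0 ± 0.08 and -0.89 ± 0.02. The level of *Csf1r* was thus further below the other markers in aged than in young brains, as was that of *Laptm5*, while the ranges of *Tyrobp* in young and aged control brains overlapped. Those 4 markers rose with age by log2 differences of 0.76 to 0.90, so any gene that rose less falls further below them. This course is not particular to *Csf1r* and *Laptm5*. *Lgmn*, 1 of 7 listed microglial genes in the table besides the 3 described here, had a log2 difference with age of 0.05 (limma, adjusted p = 0.459). Of these 7, 5 were called higher with age, among them the same 4 markers.

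Over the 9 libraries, the genes of the table with log2 levels most like *Tyrobp* included *Ctss*, *C1qb*, *C1qa* and *C1qc*, with Pearson's r between 0.963 and 0.982. For *Laptm5* they included *Ctss*, the lysosomal enzyme *Man2b1*, *C1qa* and the lysosomal protease *Ctsz*, with r between 0.922 and 0.949. For *Csf1r* they were *Grn*, the gene of progranulin, then *Laptm5*, *Szrd1*, the integrin gene *Itgb5* and *Tyrobp*, with r between 0.834 and 0.900. These correlations follow the groups as well as the single mice. When each group's mean was removed, *Tyrobp* was the 2nd most like *Csf1r* (r = 0.947), after *Trim35* (r = 0.979) and before *Xpo5*, *C1qb* and *0610010K14Rik*. *C1qb* was then most like *Tyrobp* (r = 0.959), followed by *Csf1r*, *Uckl1*, *Ly6c1* and *Trim35*, and *C1qa* most like *Laptm5* (r = 0.955), followed by *Ctss*, *Trim35*, *C1qc* and *Zcchc7*. The 9 points share their libraries and the scaling to mapped reads, so all these values are descriptions. Aged-repopulated replicate 1, the highest library for *Csf1r*, *Tyrobp* and *Laptm5*, is among the points, and the correlations were not computed without it.

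Few other genes of the pathways of CSF1R and TYROBP are in the table. Of 64 genes listed for signalling by CSF1R, from the ligands *Csf1* and *Il34* to kinases and transcription factors, 2 are in the table, *Csf1r* and the kinase gene *Map2k2*. *Map2k2* was 17.4 ± 0.21 RPKM (SD, n = 3) in the young, 20.5 ± 1.96 in the aged control and 19.0 ± 0.35 in the aged-repopulated group. It was called higher with age (log2 difference 0.22, limma, adjusted p = 0.0116), a call that it lost after median centring of the libraries, and it was not called with repopulation (log2 difference -0.10, limma, adjusted p = 0.181). Of 48 genes listed for signalling by TYROBP, *Tyrobp* is the only one in the table, so receptors such as *Trem2* and the kinase *Syk* are not analysed here.

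Of 73 genes listed for lysosomes and partners of LAPTM5, 9 besides *Laptm5* are in the table. The table holds only genes that the study had called, so counts here do not describe the listed genes outside it. With age, 6 of the 9 were called higher and 0 lower, against 46.3% of the table called higher, with a median log2 difference of 0.20, and with each library centred on its median 2 were called higher. With repopulation 0 of the 9 were called by limma, with an unadjusted p under 0.05 for 1, and the median was 0.02. In the aged-repopulated brains 3 were called higher and 0 lower than in young controls, against 4.21% of the table called higher, with a median of 0.22. *Ctss* was 28 ± 0.09 RPKM (SD, n = 3) in the young, 49.8 ± 4.02 in the aged control and 55.0 ± 12.8 in the aged-repopulated group, and *Ctsz* was 15.8 ± 0.36, 23.5 ± 2.70 and 25.4 ± 3.68 RPKM. *Lamp2*, a main protein of the lysosomal membrane, was called with age, with a log2 difference of 0.21 (limma, adjusted p = 0.0107). In the same order of groups, *Gga3*, the gene of a sorting adaptor for the route to lysosomes, was 18.2 ± 0.25, 19.1 ± 0.46 and 18.3 ± 0.44 RPKM and was called in no comparison. *Atp6v0b*, a subunit gene of the proton pump of lysosomes, was 110 ± 2.32, 123 ± 7.00 and 114 ± 2.89 RPKM and was called with age (limma, adjusted p = 0.0167).

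Of 47 genes listed as microglial, 7 besides the 3 described here are in the table, among them *Ctss*, *Ctsz* and *Lgmn*, which the lysosomal list also holds. Here too, the counts do not describe the listed genes outside the table. With age 5 of these 7 were called higher and 0 lower, against 46.3% of the table called higher, with a median log2 difference of 0.76. With repopulation limma called 0, with an unadjusted p under 0.05 for 0, and the log2 difference was above 0 for 3 of the 7. In the aged-repopulated brains 5 were called higher than in young controls, against 4.21% of the table, with a median of 0.69. *Sparc*, whose product shapes the matrix around cells, was called in no comparison, with log2 differences of 0.18 with age and -0.12 with repopulation.

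Of 49 genes listed for activated microglia, 7 are in the table. As for the other lists, the counts cover only listed genes that the study had called, not activation genes as a class. All 7 were called higher with age, against 46.3% of the table, with log2 differences from 0.41 to 0.99. They include *B2m*, *H2-D1* and *H2-K1* of antigen presentation and *Ifi27* and *Ifitm3*, which interferons induce. With repopulation limma called 0 of the 7, with an unadjusted p under 0.05 for 0 and log2 differences from -0.21 to 0.01. In the aged-repopulated brains 4 of the 7 were called higher than in young controls, against 4.21% of the table, with log2 differences from 0.30 to 1.01. The difference with age of *Tyrobp*, 0.79, lay inside the range of these genes, and those of *Laptm5* and *Csf1r* lay below it.

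**Figure D5:**
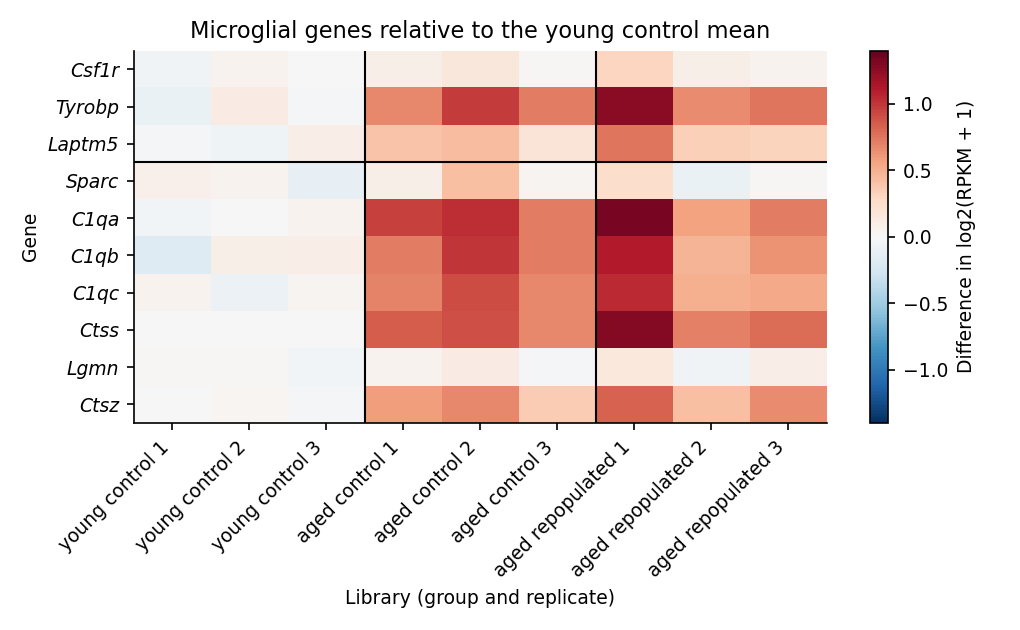
Difference of each microglial gene of the table from its young control mean, in log2(RPKM + 1) by colour, for each library (columns, in groups of 3) and gene (rows, with the 3 genes described here on top). In the aged libraries *Tyrobp* lies at 0.66 to 1.26 and *Csf1r* at 0.015 to 0.31, and aged-repopulated replicate 1 is the highest library in every row but that of *Sparc*.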

How the data were processed

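The samples were RNA-seq libraries from frozen hemibrains, 1 per mouse, of 3 mice in each of the 3 groups. The authors called bases with CASAVA 1.8.2, aligned reads with ELAND to mm10, computed RPKM per gene and kept the genes that their linear model of age and microglial state called. The counting step is not given in the sources used here. The deposited table also holds the authors' F and t scores, and deposited p-values of their model, none of which was used. All columns of library values were matched to samples (0 left over). The table gives no read counts, and a search of 400 low genes for RPKM steps of whole reads gave a best mean cosine of 0.121 to 0.151 per library, where perfect steps give 1, so depth is unknown and precision rests on the spread between mice.

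From the deposited RPKM, log2(RPKM + 1) of all 689 genes in 9 libraries was compared between groups in one fit of group means (limma 3.58.1, R 4.3.3), with Benjamini-Hochberg adjustment over the table at 0.05. Single values were tested with exact permutation tests over libraries in Python 3.11.15. The code was tested on simulated data. Labels give each library its group and no number shared between groups, so nothing was paired. The 3 genes, the gene lists and the tests were chosen with earlier results of these data known. Genes named are the 3 genes, from each pathway list the genes with the smallest p with age and with repopulation (3 each), and the 5 genes most like each of the 3. Markers were named from their lists. One gene of these lists is not reported here and was left out of list counts, sums and means. Locations and transcript lengths came from GENCODE M21 on GRCm38, the assembly of mm10 (686 symbols matched, 19 through an older symbol), and the promoter from RefSeq. Alternatives were other pseudocounts (0.1 and 10), untransformed RPKM, median centring, quantile normalization, loess corrections for transcript length and GC content, a minimum mean of 20 RPKM, fits of the compared groups only, no variance moderation, adjustment over the number of genes that the study tested, and leaving out each library. Sums and overlaps without aged-repopulated replicate 1 were added after the data were seen.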

Additional observations from a re-analysis of the deposited data

How the results depend on the processing

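Of 19 alternatives, the adjusted p from limma for *Tyrobp* with age was under 0.05 in 18 (range 0.000402 to 0.0585) and against young controls in 16 (0.00429 to 0.0858). For *Laptm5* it was under 0.05 in 8 with age (0.00629 to 0.235) and in 8 against young controls (0.0313 to 0.405), and for *Csf1r*, and for all 3 genes with repopulation, in 0. A minimum mean of 20 RPKM removed all 3 genes and gave no value. Adjustment for the number of genes that the study tested left 0 genes called, with unchanged log2 differences (*Tyrobp* 0.79 and 0.89, *Laptm5* 0.34 and 0.46 with age and against young controls). It counts the genes outside the table as having higher p values. The cause of the other changes was not tested. *Csf1r* with age turned to -0.023 with median centring and -0.031 with the GC correction. *Laptm5* with age lost its call with median centring (0.23), quantile normalization (0.22), the length correction (0.23), the GC correction (0.21), no variance moderation (0.34) and untransformed RPKM (2.42 RPKM), each leaving 1 gene called. Against young controls it lost its call with a pseudocount of 10 (0.25), quantile normalization (0.38), the GC correction (0.40) and a fit of those groups alone (0.46), each leaving 1 gene called. Untransformed RPKM (*Tyrobp* 9.69 and *Laptm5* 3.56 RPKM) and no variance moderation (0.89 and 0.46) left 0. Leaving out each library in turn gave *Laptm5* differences of 0.29 to 0.41 with age and 0.32 to 0.54 against young controls, with 1 to 2 genes called in each. With repopulation it gave -0.018 to 0.11 for *Csf1r*, -0.084 to 0.21 for *Tyrobp* and -0.017 to 0.20 for *Laptm5*. Scaling also moved these uncalled differences by over 1.5 times, that of *Csf1r* to 0.12 with median centring and with the GC correction, that of *Tyrobp* to 0.23 with the length correction, 0.17 with the GC correction and 0.155 with median centring, and that of *Laptm5* to 0.196 with the GC correction. With the length correction the log2 ratios with age were 0.46 (*Tyrobp*/*Csf1r*), 0.15 (*Laptm5*/*Csf1r*) and 0.31 (*Tyrobp*/*Laptm5*), and that of *Tyrobp*/*Csf1r* with repopulation was 0.18. Depth is unknown, so the counting error of low values cannot be given.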
